A study of Mus musculus with 8 samples.

Results

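Transcripts of the mitochondrial respiratory chain and ATP synthase were followed across cultured mouse fetal liver erythroid progenitors. The genes were taken by name from the array annotation: every gene name that begins with Nduf, Uqcr, Atp5 or the stems Cox4 to Cox8, together with Sdha, Sdhb, Sdhc and Sdhd. This gave 90 of 31539 gene names, on 126 probes, and each gene was represented by its brightest probe. The stems also caught 4 genes that code for no subunit of these complexes, Cox7a2l and the genes that RefSeq now names Emc8 (Cox4nb here), Dmac2l (Atp5s) and Dmac2 (Atp5sl). Of the 90 genes 86 were tested, and these 86 were well above background on all 8 arrays. Cox7b2, Cox8b and Cox8c, forms known from testis or muscle, were well above background on 0 of 8 arrays. Ndufa4l2, a paralogue of the complex IV component Ndufa4, was not tested because its only probe carried an outlier mark.

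The starting cells were fetal liver cells taken at E14.5 from C57BL/6 mice. Lineage-positive, Sca-1-positive and myeloid progenitor cells had been depleted, and c-kit-positive cells in the lowest 10% for the transferrin receptor CD71 had been sorted. There were 4 groups of 2 arrays each: virus with shRNA1 plus DEX, virus with shRNA2 plus DEX, control virus plus DEX, and control virus with no DEX. All groups were infected with a virus and cultured for 3 days. DEX is taken to be dexamethasone, a synthetic glucocorticoid that keeps erythroid progenitors dividing. Both shRNAs target the same RNA-binding protein, which the labels do not name, and the share of infected cells is not given in the sources used here. Replicate 1 of each group was on slide 1 and replicate 2 on slide 2. Whether replicates were separate cultures or animals is not stated either, so the spread behind a p-value here may be technical. Without a block, that spread is how far the 2 arrays of each group differ, pooled over the 4 groups. A fit with the slide as a block first takes out the slide difference common to the groups. The spread left is how far the slide difference varies between groups.

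Levels are log2 signals relative to the 75th percentile of the array, and differences are given on the log2 scale, each with the limma standard error (SE). A level is used to compare arrays at 1 probe and says nothing of 1 gene against another. The 75th percentile over all non-control spots ran from 476 to 1003 on slide 1 and from 1439 to 2061 on slide 2. It was lowest with the shRNAs on each slide. The scaling itself took the 75th percentile over usable probes, whose values differ somewhat and are not given here. Zfp36l2, the protein that the published study of this design names as the target, had levels of 4.18 and 4.05 with shRNA1, 4.25 and 3.86 with shRNA2, 5.70 and 5.56 in control cells with DEX, and 3.61 and 3.98 in control cells with no DEX. Control cells with DEX lay above all other arrays, and with the slide as a block the limma adjusted p was 0.0667 (DEX), 0.241 (shRNA1) and 0.777 (shRNA2). The 12 erythroid markers were well above background on all 8 arrays. Of 11 hepatocyte markers, 5 were above background on all arrays (Afp, Apoa1, Apoa2, Serpina1a and Trf), and Alb, Fgb, Fgg and Ttr on none. The 6 tested had a median log2 difference of 0.55 with DEX, with Apoa1 at 4.30, and of -0.01 with each shRNA. Ahsg had levels of -0.88 and -3.13 in control cells with DEX and -5.67 and -6.93 with no DEX. Serpina1a and Trf were lower with DEX in the mean. With each shRNA Apoa1 was lower and Trf higher in the mean. In bulk RNA, fewer cells of a type and less RNA per cell cannot be told apart.

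The respiratory chain passes electrons from NADH, through complex I, and from succinate, through complex II, to coenzyme Q, on to complex III, cytochrome c and complex IV, and finally to oxygen. The proton gradient built on the way drives ATP synthase. Most subunits are the same in every tissue, but several subunits of complex IV exist in forms made by separate genes, with a widely expressed form and a second form restricted to tissues such as heart, skeletal muscle, lung or testis. Erythroid progenitors depend on mitochondria for haem synthesis as well as for energy, and maturing red cells finally discard them.

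The gene that stood out was Cox6a2, which codes for the heart and skeletal muscle form of subunit VIa of complex IV. Its level was far lower in control cells with DEX than in the other 3 groups. The tissue-restricted forms of complex IV are shown here by the opening 30 bases of their 60-base probes, because each value below is the signal of that probe alone and the array annotation gives each to the restricted gene.
Cox6a2: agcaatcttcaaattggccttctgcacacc
Cox7a1: acaacgtcctgtacagactgaccatgacgc
Cox6b2: ggaactttcccgggcaaaatatgaccttgc
Cox4i2: ctgagtcctgtctccactcccttctccaat
In mouse build mm9 the whole probes lie at chr7:135349160-135349219 for Cox6a2, chr7:30970337-30970948 for Cox7a1, chr7:4703488-4703547 for Cox6b2 and chr2:152590711-152590770 for Cox4i2. Exon and UTR positions were not used here. The G and C content of the whole probe was 55% for Cox6a2, Cox7a1 and Cox6b2 and 48.3% for Cox4i2.

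Cox6a2 had levels of -2.16 and -2.41 with shRNA1 on slides 1 and 2, -1.12 and -1.89 with shRNA2, -4.15 and -5.24 in control cells with DEX, and -1.89 and -2.35 in control cells with no DEX. Both arrays of control cells with DEX lay below the other 6 arrays, with no overlap. The mean levels were -2.29 ± 0.18 with shRNA1, -1.51 ± 0.55 with shRNA2, -4.69 ± 0.77 in control cells with DEX and -2.12 ± 0.33 in control cells with no DEX (SD, n = 2 each). The ranges of shRNA1 and of control cells with no DEX overlapped, and slide 2 of shRNA2 lay at about slide 1 of control cells with no DEX. The probe was dim but measured: its signal on control arrays with DEX was 49.1 and 49.5, above the signals of 20.9% and 10.8% of the probes well above background there. On the other 6 arrays it lay above 37.1% to 47.1% of them.

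With DEX, Cox6a2 was lower by 5.95-fold in control cells, a log2 difference of -2.57 (slide 1 -2.26, slide 2 -2.88). Limma without a block, the main fit, called 0 of the 86 genes and 0.0% of all 19085 genes tested. Cox6a2 itself had an adjusted p = 0.411 there (SE 0.48), and it was the 1 gene of the 86 with an unadjusted p under 0.05, a threshold that 3.13% of all genes met. With the slide as a block, limma called 1 of the 86 genes, Cox6a2 (adjusted p = 0.0461, SE 0.26), against 0.236% of all genes (45 genes). It ranked 39 of 19085 genes by p in that fit. Leaving out 1 array at a time, the blocked call was kept in 2 of 8 cases, without shRNA2 replicate 1 or without shRNA2 replicate 2 (limma adjusted p = 0.0385 in each), and it was lost in the other 6 (up to 0.390). Quantile normalization with the block also ended it (limma adjusted p = 0.0633), while scaling to the array median with the block did not (0.0442).

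With the shRNAs, Cox6a2 was higher than in control cells with DEX. The log2 difference was 2.41 with shRNA1 (slides 1.99 and 2.82), a 5.31-fold higher signal, and 3.19 with shRNA2 (slides 3.04 and 3.34), a 9.12-fold higher signal. Neither passed over all genes in limma: the adjusted p was 0.929 for shRNA1 and 1.000 for shRNA2 without a block, and 0.231 and 0.286 with it. By p in the blocked fit Cox6a2 ranked 10 of 19085 genes for shRNA1 and 2 of 19085 for shRNA2. Between the shRNAs the difference was -0.78 (slides -1.04 and -0.52; limma adjusted p = 1.000 without and 0.428 with the block). The 3 comparisons share the control arrays with DEX, so a low value on those arrays enters each of them.

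Cox6a2 was the 1 gene of the 86 that differed by 2-fold or more on both slides with DEX, with shRNA1 and with shRNA2. Among all genes 1.98% were that much lower with DEX, 2.91% that much higher with shRNA1 and 0.791% that much higher with shRNA2. In the other direction 0 of the 86 did so with DEX (all genes 1.7%), shRNA1 (0.671%) or shRNA2 (0.257%), and between the shRNAs 0 did so either way (1.39% higher, 0.335% lower). Cox6a2 was also the 1 gene of the 86 with an unadjusted limma p under 0.05 without a block for shRNA1 (all genes 2.05%) and for shRNA2 (1.27%), and between the shRNAs there was none (0 of 86, all genes 2.26%). With the block 3 of the 86 met that threshold with DEX (Cox6a2, Cox7a1 and Ndufaf3; all genes 9.57%), 3 with shRNA1 (Cox6a2, Atp5s and Ndufb7; 17.1%), and Cox6a2 alone with shRNA2 (5.75%) and between the shRNAs (10.6%). The sizes differed between ways of processing. In the authors' deposited log2 table the Cox6a2 difference was -1.75 with DEX, 1.55 with shRNA1 and 2.29 with shRNA2. With a repaired normexp background correction it was -1.59, 1.59 and 2.18.

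Cox6a1, the widely expressed form of the same subunit, did not share these differences. Its levels were 8.04 and 7.90 with shRNA1, 8.07 and 7.83 with shRNA2, 8.18 and 7.71 in control cells with DEX, and 8.26 and 7.75 in control cells with no DEX. All groups overlapped, and the slides differed more than the groups did. With DEX the log2 difference was -0.06 (SE 0.34), and for the shRNAs it was 0.03 (shRNA1) and 0.01 (shRNA2).

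**Figure D1:**
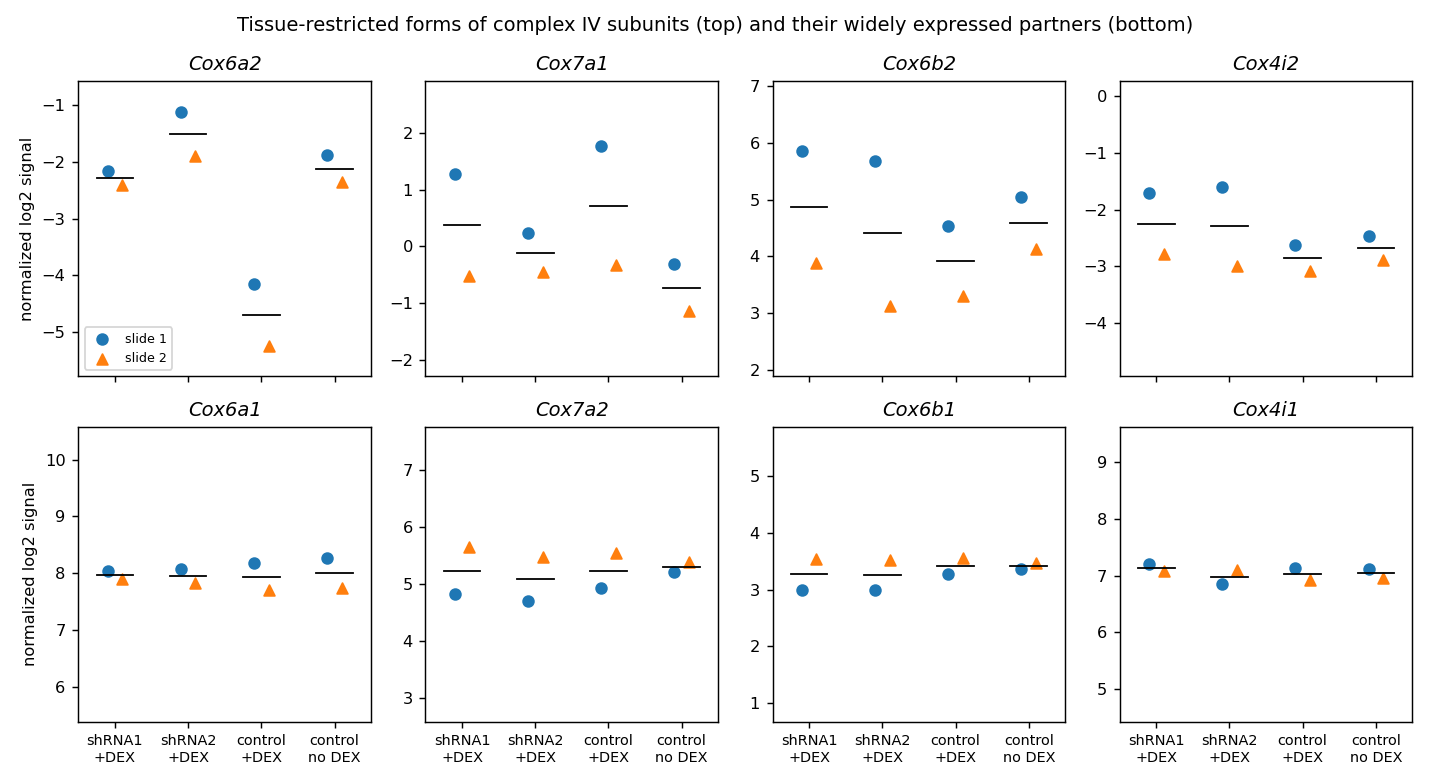
Normalized log2 signal (vertical axis) of the 4 tested tissue-restricted forms of complex IV subunits in the top row and of their widely expressed partners below them, by group. Circles are slide 1, triangles slide 2 and short lines the mean of the 2 arrays; every panel spans the same height. Cox6a2 in control cells with DEX, at -4.15 and -5.24, lies below all other arrays, and Cox6a1 stays between 7.71 and 8.26.

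Markers of other cells were set beside Cox6a2. Of 18 muscle markers with a usable probe, from the tissue for which the gene is best known, 4 were above background on all arrays (Myh7, Tnnc2, Tnni2 and Tnni3), and Casq1, Casq2, Mb, Myh1, Myh4 and Myog on none. The others were above background on some arrays. Their summed linear level, in multiples of the 75th percentile, was 2.00 and 0.475 with shRNA1, 1.33 and 0.432 with shRNA2, 0.817 and 0.385 in control cells with DEX, and 0.742 and 0.668 in control cells with no DEX. Control cells with DEX had the higher sum of the control arrays on slide 1 and the lower sum on slide 2, and with each shRNA the sum was above that of control cells with DEX on both slides.

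Neutrophil and granulocyte precursor markers differed in the same direction as Cox6a2. Of 13 tested, 13 were higher on both slides with each shRNA (all genes 47.1% with shRNA1 and 27.8% with shRNA2). Their median log2 difference was 1.66 with shRNA1 (slides 1.93 and 1.39) and 2.42 with shRNA2 (slides 4.16 and 0.90). With DEX the median was -1.03 (slides -0.17 and -1.66). Their summed level was 141 and 158 with shRNA1, 593 and 101 with shRNA2, 40.9 and 72.2 in control cells with DEX, and 44.3 and 198 in control cells with no DEX. The sum was lowest in control cells with DEX on each slide. The 12 erythroid markers had a median of -0.71 with DEX, 0.77 with shRNA1 and 0.03 with shRNA2, and the 9 tested muscle markers 0.02, 0.79 and -0.06.

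Monocyte and megakaryocyte markers also differed in the direction of Cox6a2 in their medians, and mast cell markers did so in part. The 8 tested monocyte and macrophage markers had a median log2 difference of -1.16 with DEX, 0.91 with shRNA1 and 1.58 with shRNA2. The 11 megakaryocyte and platelet markers had -0.90, 0.69 and 1.05, and 8 of the 11 were lower with DEX without overlap between groups (all genes 15.6%). The 6 tested mast cell and basophil markers had -1.04, 0.18 and 0.83, with Hdc at 2.86 with DEX. Their median with shRNA1 was near that of all genes, 0.15. The summed monocyte level was 9.82 and 3.69 with shRNA1, 15.3 and 2.28 with shRNA2, 3.53 and 1.90 in control cells with DEX, and 4.32 and 5.80 in control cells with no DEX. The summed megakaryocyte level was 90.6 and 28.1 with shRNA1, 231 and 19.0 with shRNA2, 39.0 and 24.7 in control cells with DEX, and 58.9 and 81.1 in control cells with no DEX. The summed mast cell level was 43.1 and 13.2 with shRNA1, 38.3 and 16.9 with shRNA2, 49.3 and 18.8 in control cells with DEX, and 6.78 and 12.4 in control cells with no DEX. Beyond these values, the part of cell composition in the Cox6a2 differences was not tested.

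Cox7a1, the heart and muscle form of subunit VIIa, pointed the other way with DEX but varied more between slides. Its levels were 1.28 and -0.51 with shRNA1, 0.24 and -0.46 with shRNA2, 1.76 and -0.33 in control cells with DEX, and -0.31 and -1.14 in control cells with no DEX. All 4 groups overlapped, and slide 1 was higher than slide 2 in each. The log2 difference with DEX was 1.44 (slides 2.08 and 0.81), with a limma adjusted p = 1.000 without a block (SE 0.88) and 0.281 with it (SE 0.40). It was -0.33 with shRNA1 (slides -0.49 and -0.18) and -0.83 with shRNA2 (slides -1.53 and -0.13). Its partner Cox7a2, the widely expressed form, differed by -0.06, -0.00 and -0.15 in the same comparisons.

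Cox6b2, the testis form of subunit VIb, had levels of 5.85 and 3.88 with shRNA1, 5.68 and 3.13 with shRNA2, 4.53 and 3.31 in control cells with DEX, and 5.05 and 4.13 in control cells with no DEX. The groups overlapped and slide 1 was higher in each. With DEX its log2 difference was -0.67 (SE 1.05). It was 0.95 for shRNA1 and 0.48 for shRNA2, against -0.00, -0.14 and -0.16 for Cox6b1, the widely expressed form. Cox4i2, the lung form of subunit IV that oxygen shortage is known to induce, had levels between -3.08 and -1.59 on the 8 arrays. It differed by -0.18 with DEX, 0.61 with shRNA1 and 0.56 with shRNA2, and no group was separate from control cells with DEX. Its partner Cox4i1 differed by -0.02, 0.12 and -0.04. None of Cox7a1, Cox6b2 and Cox4i2 passed limma over all genes in any comparison, with or without the block.

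The rest of the chain, which holds its structural core, differed little. With DEX 81 of the 86 genes lay within 0.5 of no difference on the log2 scale, against 80.4% of all genes. With shRNA1 77 did (all genes 61.8%), with shRNA2 81 (all genes 78.4%), and between the shRNAs 85 (all genes 76.2%). These counts include Cox6a2, the other tissue-restricted forms, assembly factors and genes that are no subunits. Of the 74 remaining subunits, 73 lay within 0.5 with DEX, 71 with shRNA1, 73 with shRNA2 and 74 between the shRNAs. All genes include many dim probes, and the comparison with them was not matched for brightness. The median size of the difference was 0.12 with DEX, 0.21 with shRNA1 and 0.16 with shRNA2 for the 86 genes, and 0.20, 0.39 and 0.25 for all genes. A small difference that misses the threshold does not show that a gene was the same: the median SE of the 86 genes was 0.42 without a block and 0.24 with it.

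**Figure D2:**
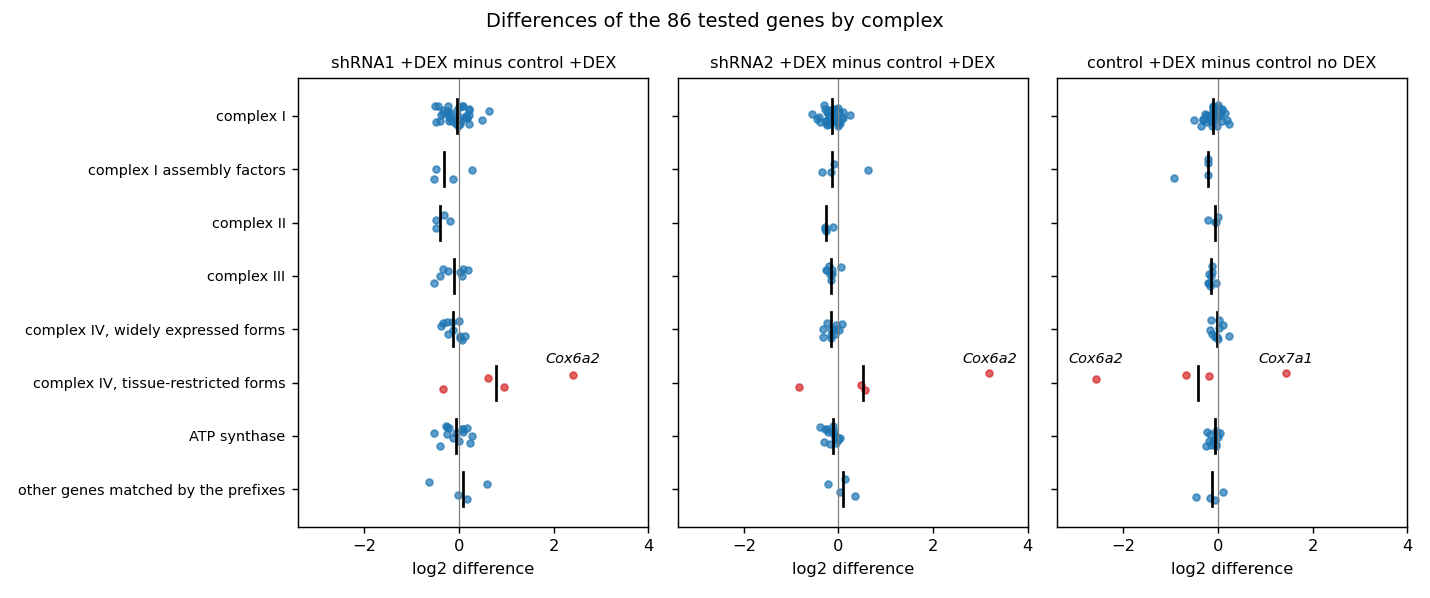
Log2 differences of the 86 tested genes (horizontal axis), grouped by complex (vertical axis), in 3 comparisons; each point is a gene, and black lines are group medians. Points of the tissue-restricted forms are red. Cox6a2 lies at 2.41 and 3.19 with the shRNAs and at -2.57 with DEX, and the points of complexes I to III, of the widely expressed forms of complex IV and of ATP synthase lie between -0.56 and 0.63.

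Complex I, which oxidises NADH, was represented by 36 subunits. Their median log2 difference was -0.10 with DEX, -0.04 with shRNA1 and -0.13 with shRNA2. Over all 86 genes, the groups did not overlap for 3 higher and 10 lower with DEX (all genes 10.8% and 15.6%), 8 higher and 2 lower with shRNA1 (16.4% and 8.31%), and 3 higher and 2 lower with shRNA2 (7.49% and 7.88%). The shares of the 86 genes, 3.49% and 11.6%, 9.30% and 2.33%, and 3.49% and 2.33%, were each below those of all genes. Limma without and with the block called 0 of the 86 genes with either shRNA, where the block called 0.0% of all genes with shRNA1 and 0.00524% (1 gene) with shRNA2.

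Ndufb7, an accessory subunit on the intermembrane side of complex I, had levels of 6.45 and 6.29 with shRNA1, 5.96 and 6.03 with shRNA2, 5.62 and 5.86 in control cells with DEX, and 6.11 and 6.00 in control cells with no DEX. Control cells with DEX lay lowest on each slide, as they did for Cox6a2, with no overlap with any other group. With DEX the log2 difference was -0.31 (SE 0.28), for shRNA1 it was 0.63 and for shRNA2 0.25. The limma adjusted p with the block was 0.830, 0.264 and 0.779.

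Ndufa5, an accessory subunit of the matrix arm, had levels of 5.04 and 5.69 in control cells with DEX and 5.88 and 5.85 in control cells with no DEX, a difference of -0.51 (slides -0.84 and -0.17). Ndufb10, an accessory subunit of the membrane arm, differed by -0.32 with DEX (slides -0.42 and -0.21). With shRNA1 Ndufa13, also known as GRIM-19, was higher by 0.49 (slides 0.65 and 0.33) and the accessory subunit Ndufa10 lower, at -0.50 (slides -0.81 and -0.19). With shRNA2 Ndufb11 was at -0.13. Between the shRNAs 6 of the 86 genes were higher with shRNA1 without overlap (all genes 11.2%), and 1, Cox6a2, was lower (all genes 5.18%). Of these 6, Ndufa13 differed by 0.39, Ndufb7 by 0.38 and Ndufa3 by 0.26. None of these genes passed limma over all genes.

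The 4 assembly factors of complex I help to build it and are not part of it. Ndufaf3 had levels of -0.71 and 0.71 in control cells with DEX and 0.63 and 1.23 in control cells with no DEX, and differed by -0.93 (slides -1.34 and -0.51). The groups overlapped, and limma gave an adjusted p = 0.470 with the block. Ndufaf4 had 1.07 and 3.15 with shRNA1, 1.48 and 3.45 with shRNA2, 1.83 and 3.44 in control cells with DEX, and 2.27 and 3.43 in control cells with no DEX. Slide 1 was lower than slide 2 in every group by more than the group means differed.

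Complex II, succinate dehydrogenase, links the citric acid cycle to the chain. All 4 subunits were lower on both slides with shRNA1 (all genes 28.2%). Their median log2 difference was -0.40 (slides -0.68 and -0.11), and its difference from the median of all genes was -0.88 on slide 1 and -0.21 on slide 2. Sdha, the flavoprotein that oxidises succinate, had levels of 3.17 and 4.39 with shRNA1 and 4.06 and 4.49 in control cells with DEX. The groups overlapped, as they did for the other 3 subunits. The differences with shRNA1 were -0.50 for Sdha (SE 0.54), -0.31 for Sdhb, the iron-sulphur subunit, -0.20 for Sdhc and -0.50 for Sdhd, the membrane anchors. With shRNA2 the median was -0.27 (slides -0.50 and -0.01), and with DEX it was -0.06.

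Complex III, which passes electrons from coenzyme Q to cytochrome c, had 8 genes with a median of -0.15 with DEX, -0.11 with shRNA1 and -0.17 with shRNA2. With DEX 8 of 8 were lower in the mean, by 0.04 to 0.21, and 0 of 8 were lower on both slides (all genes 36.9%). Uqcrc2, a core protein, had levels of 3.48 and 5.03 with shRNA1, 4.13 and 5.17 with shRNA2, 4.26 and 5.30 in control cells with DEX, and 4.65 and 5.30 in control cells with no DEX. Its difference with shRNA1 was -0.53 (slides -0.79 and -0.27), the lowest of the 8. The small accessory subunit Uqcrq differed by 0.13 between the shRNAs.

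The 11 widely expressed subunits of complex IV had medians of -0.02 with DEX, -0.13 with shRNA1 and -0.15 with shRNA2. Cox6c had levels of 5.47 and 5.72 in control cells with DEX and 5.42 and 5.31 in control cells with no DEX, a difference of 0.23 (slides 0.06 and 0.41). Ndufa4, first assigned to complex I and later to complex IV, was at 0.03 with DEX, -0.39 with shRNA1 and -0.32 with shRNA2. Cox7b was at 0.02, -0.13 and -0.25, and Cox8a at -0.14, 0.05 and 0.07. The other probe of Cox8a was at -0.08 with shRNA1 and -0.06 with shRNA2. The brightest probe of Cox5b lies on chromosome 15 in mm9, whereas the gene is on chromosome 1 in RefSeq, and whether its signal comes from the gene was not tested.

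ATP synthase, with 15 genes, had medians of -0.06 with DEX, -0.07 with shRNA1 and -0.12 with shRNA2. The 3 genes for its c subunit, which form the rotating ring from identical mature proteins, stayed near each other with DEX, where Atp5g1 was at -0.18, Atp5g2 at -0.10 and Atp5g3 at -0.06. With shRNA1 they were at -0.12, -0.25 and -0.40, and with shRNA2 at -0.28, 0.03 and -0.12. Atp5k was at -0.26 with DEX, and Atp5e, of the central stalk, at 0.27 and Atp5d, also of the stalk, at 0.24 with shRNA1. Scaling to the array median turned both of the last values to -0.11 and -0.14. Between the shRNAs Atp5e differed by 0.29.

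Of the genes caught by name alone, Atp5s had levels of -0.40 and -0.69 with shRNA1, -0.66 and -0.89 with shRNA2, -1.08 and -1.17 in control cells with DEX, and -0.66 and -0.67 in control cells with no DEX. Control cells with DEX lay lowest on both slides. Its difference was -0.46 for DEX (SE 0.28), 0.58 for shRNA1 and 0.35 for shRNA2, and it did not pass limma in any of them. Atp5sl was at 0.11 with DEX. Cox7a2l, a factor that joins complexes III and IV, was at -0.17 with DEX, 0.17 with shRNA1 and 0.03 with shRNA2. Its 3 probes, all above background on all arrays, differed in sign with the shRNAs. They ran from -0.26 to 0.17 with shRNA1 and from -0.14 to 0.03 with shRNA2.

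**Figure D3:**
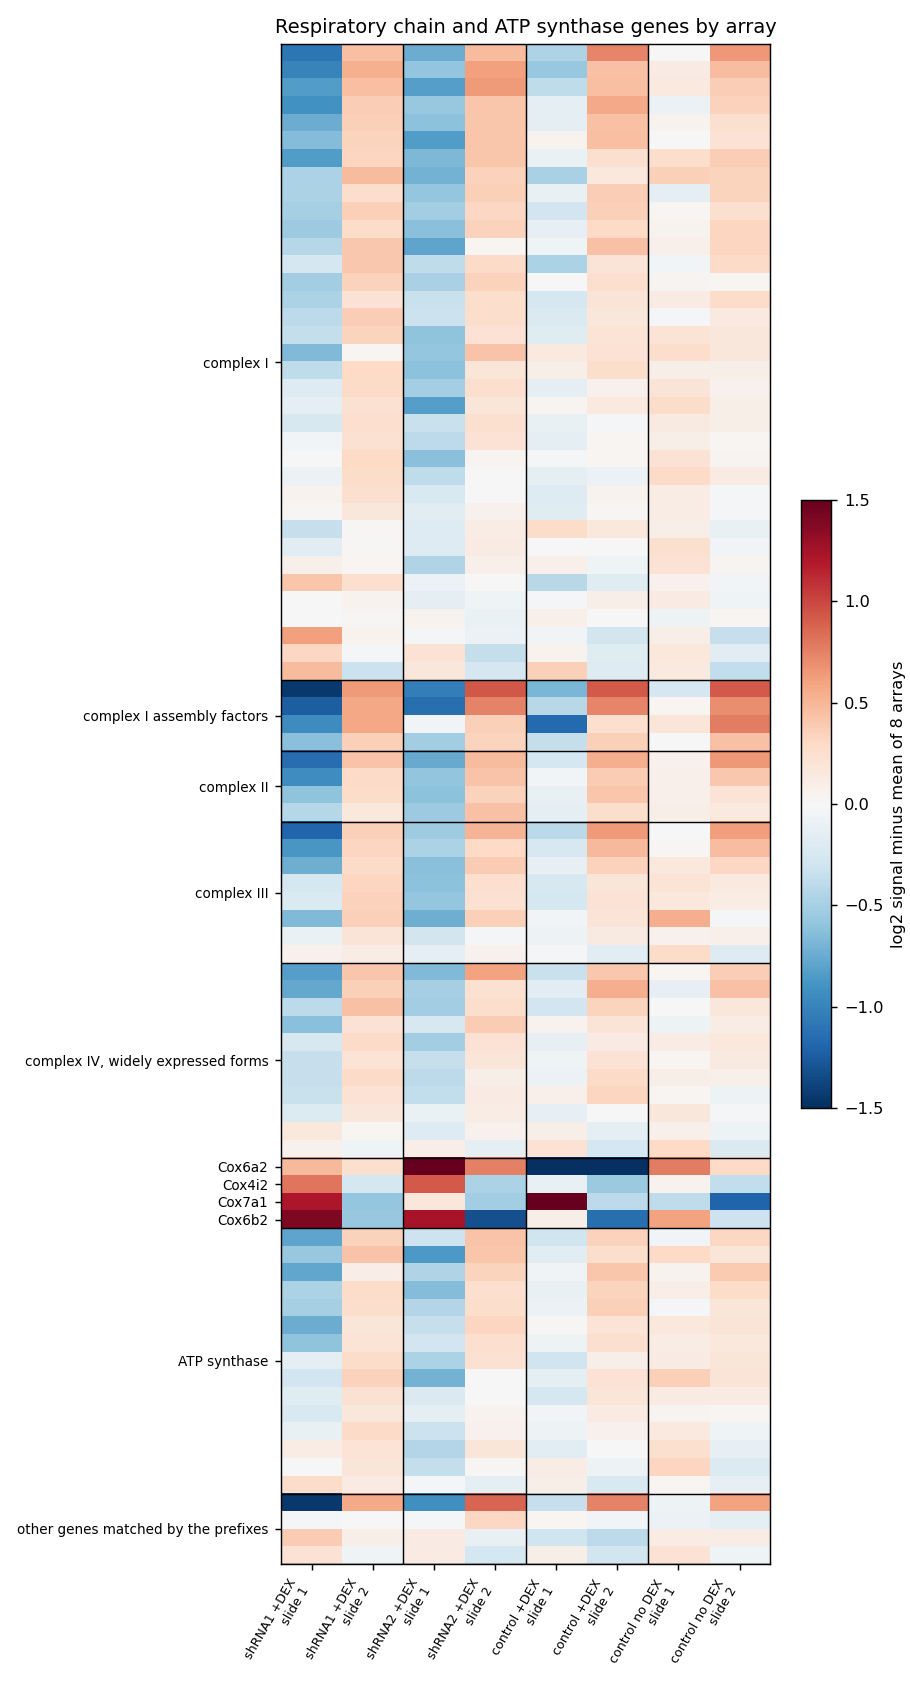
Log2 signal of the 86 tested genes (rows, grouped by complex and, within a complex, ordered by slide 1 minus slide 2 over all groups, with only the tissue-restricted forms named) on the 8 arrays (columns, by group and slide), minus the mean of the gene over all arrays; the colour scale stops at -1.5 and 1.5. Within the shRNA groups and control cells with DEX most rows are bluer on slide 1 than on slide 2, and the row of Cox6a2 is blue on both arrays of control cells with DEX.

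The slides differed more than the groups for most of these genes. The median difference of slide 1 minus slide 2 over the 86 genes was -0.63 with shRNA1, -0.68 with shRNA2, -0.29 in control cells with DEX and 0.01 in control cells with no DEX. Over all genes it was 0.22, 0.19, 0.10 and 0.12. With shRNA1 72 of the 86 genes were lower on slide 1, with shRNA2 74, in control cells with DEX 67, and in control cells with no DEX 41. Ndufaf4 was the lowest of the 86 in each group, at -2.08, -1.97, -1.60 and -1.16. Across the 86 genes the slide differences of any 2 groups had a Pearson correlation between 0.72 and 0.92, where the points share both slides. Their correlation with the G and C content of the probe was 0.27 to 0.33.

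The comparisons also differed between the slides, and slide and replicate cannot be told apart here. The median of the 86 genes minus that of all genes was -0.38 on slide 1 and -0.05 on slide 2 with shRNA1, -0.32 and 0.03 with shRNA2, and -0.15 and 0.07 with DEX. Over both slides it was -0.22, -0.15 and -0.04. Of these 3 comparisons, shRNA1 had both slide values below 0. With each array left out and no block, which leaves the slides unbalanced, its value over both slides turned to 0.16 without shRNA1 replicate 1; that of shRNA2 turned to 0.26 without shRNA2 replicate 1 and 0.03 without control with DEX replicate 2; that of DEX turned to 0.16 without control with DEX replicate 1 and 0.04 without control with no DEX replicate 2. With the block the value of shRNA1 stayed below 0 in all 8 such fits (-0.36 to -0.07), that of shRNA2 ran from -0.30 to 0.0034 and that of DEX from -0.29 to 0.17. With shRNA1 31 of the 86 genes were lower on both slides (all genes 28.2%) and 23 higher on both (47.1%). With shRNA2 31 were lower (24.0%) and 10 higher (27.8%), and with DEX 25 were lower (36.9%) and 8 higher (24.8%). Between the shRNAs 40 were higher with shRNA1 (41.9%) and 23 lower (25.2%). The median of all genes was 0.15 with shRNA1, 0.02 with shRNA2 and -0.06 with DEX, and moved to -0.23, -0.23 and 0.02 when arrays were scaled to their median. The replicate SD of the 86 genes had a median of 0.49 with shRNA1, 0.51 with shRNA2, 0.27 in control cells with DEX and 0.13 in control cells with no DEX.

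**Figure D4:**
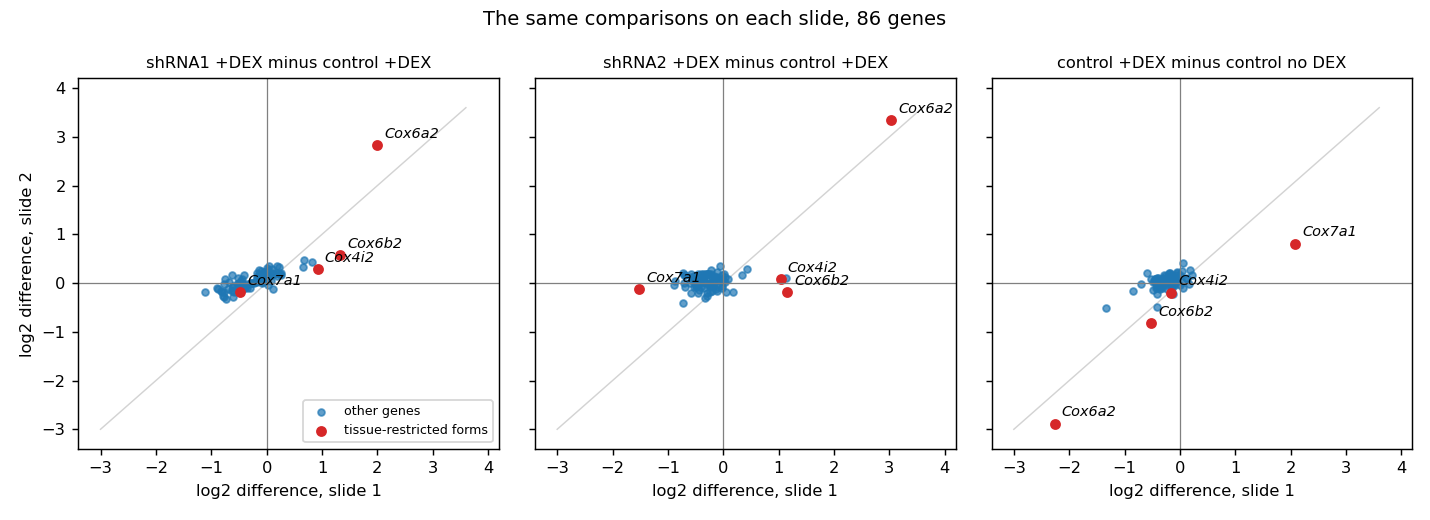
Log2 difference on slide 1 (horizontal axis) against slide 2 (vertical axis) for the 86 tested genes in 3 comparisons; red points are the tissue-restricted forms, and the grey diagonal marks equal values. Cox6a2 lies at 1.99 and 2.82 with shRNA1, 3.04 and 3.34 with shRNA2, and -2.26 and -2.88 with DEX, far from the cloud in each.

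Other mitochondrial genes were grouped in lists by function, and limma called 0 of them in each comparison, with and without the block. Of all genes limma called 0.0% in each comparison without the block. With the block it called 0.236% with DEX, 0.00524% with shRNA2, and 0.0% with shRNA1 and between the shRNAs. With shRNA1 the 13 tested genes of the citric acid cycle had a median log2 difference of -0.48 (slide medians minus all genes -0.92 and -0.24). Of these, 8 of 13 were lower on both slides (all genes 28.2%). Suclg2, a subunit of succinyl-CoA ligase, was at -0.89 (SE 0.97). Of 72 mitochondrial ribosomal proteins 41 were lower on both slides with shRNA1 (all genes 28.2%), with a median of -0.30, and Mrps27 was at -1.14. Tfam, which packages and transcribes mitochondrial DNA, was at -1.14 with shRNA1 (SE 0.78; slides -1.45 and -0.83), -0.42 with shRNA2 and 0.10 with DEX. Other genes of these lists were higher with shRNA1. The highest were Ogdh of the citric acid cycle at 0.16, the ribosomal protein Mrpl53 at 0.45 and the regulator Esrra at 0.47. Of 14 tested regulators of mitochondrial gene expression, Tfam and Esrra among them, 5 were higher with shRNA1 and 9 lower in the mean.

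Among 17 genes for the assembly of complex IV, 12 were lower on both slides with shRNA1 (all genes 28.2%) and 0 higher (47.1%). Their median was -0.24, with Coa5 lowest at -1.08 (SE 0.43) and Cox17 highest at 0.36. With shRNA2 the corresponding median was -0.14, and with DEX it was 0.01. The 7 carriers of electrons and nucleotides had a median of -0.24 with shRNA1, from -0.62 for the adenine nucleotide carrier Slc25a5 to -0.12 for Vdac3. The 9 genes of coenzyme Q synthesis had a median of -0.21 with shRNA1, from -0.65 for Pdss1 to 0.27 for Coq6. With DEX the medians of the citric acid cycle, the mitochondrial ribosome and the regulators were 0.03, -0.10 and 0.06. The 13 subunits encoded by mitochondrial DNA were found on the array under 0 of their symbols.

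**Figure D5:**
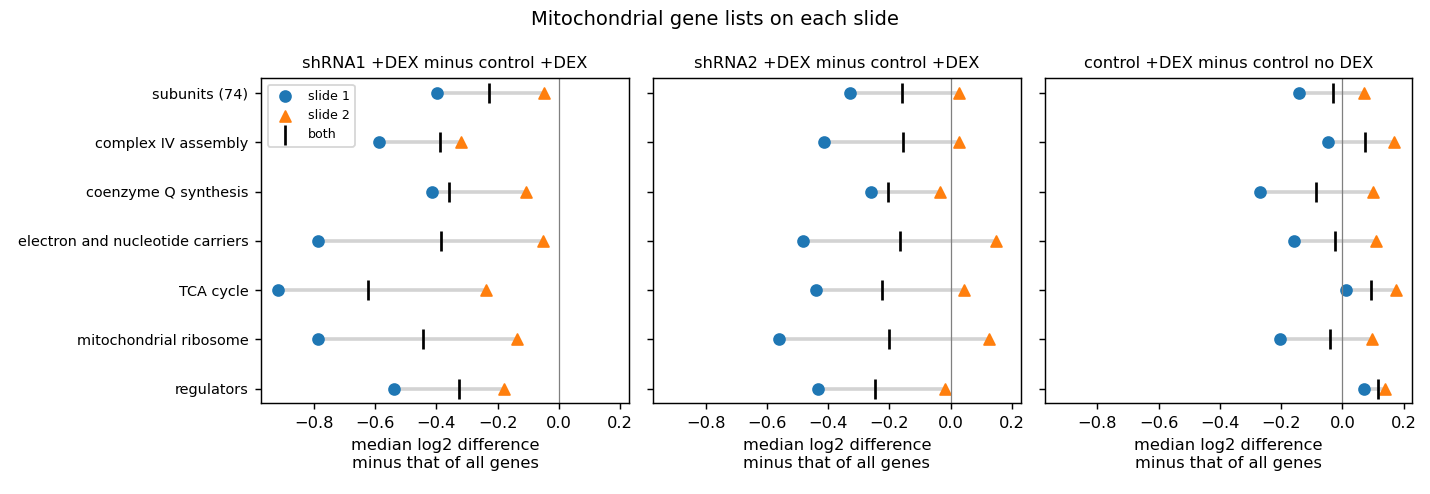
Median log2 difference of each mitochondrial gene list minus the median of all genes (horizontal axis), by list (vertical axis), in 3 comparisons; circles are slide 1, triangles slide 2 and vertical ticks both slides. Slide 1 lies left of slide 2 for every list shown in all 3 comparisons. With shRNA1 both slides lie below 0 for every list, whereas with shRNA2 and with DEX most lists straddle 0 or lie near it.

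The promoters of 74 of the 90 genes were found in a table of RefSeq promoters (GRCm38.p6, 250 bases before to 50 after the start). Members of this group are known to be driven by nuclear respiratory factors and ETS factors. The palindromic motif of nuclear respiratory factor NRF1, GCGC and TGCGC with any base between them, was present on either strand in 18 of the 74 (24.3%), against 5.19% of 27025 genes. The ETS motif CCGGAAG was in 17 (23.0%), against 9.93%, and the YY1 motif AAGATGGCG in 8 (10.8%), against 1.64%. The spaced palindrome of the glucocorticoid receptor, GNACA and TGTNC with any 3 bases between them, was in 0 of 74 (0.537% of all genes). These are matches of letters in a window of 300 bases and not sites of binding.

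The 250 bases before the start are shown for Cox6a1, whose level was even across groups, and for Cox7a1, a restricted form, because they differ in these motifs. Cox6a2 is not in the table. Capitals mark the matches, which overlap in no place. In Cox6a1 they are 2 NRF1 motifs, beginning 162 and 117 bases before the start, and an ETS motif beginning 16 bases before it. The NRF1 match nearer the start and the ETS match are read on the opposite strand. Cox7a1 holds 0 of the 4 motifs in this window. The pair does not stand for widely expressed against restricted forms. Over the 300 bases, Cox7a2, the widely expressed partner of Cox7a1, also held 0 of the 4 motifs. So did the widely expressed Cox5a, Cox5b, Cox7b, Cox7c and Ndufa4, whereas Cox6b1 and Cox8a held the ETS motif. The regions are chr5:115348959-115349208, minus strand, for Cox6a1 and chr7:30183921-30184170, plus strand, for Cox7a1, both in GRCm38.p6.
Cox6a1: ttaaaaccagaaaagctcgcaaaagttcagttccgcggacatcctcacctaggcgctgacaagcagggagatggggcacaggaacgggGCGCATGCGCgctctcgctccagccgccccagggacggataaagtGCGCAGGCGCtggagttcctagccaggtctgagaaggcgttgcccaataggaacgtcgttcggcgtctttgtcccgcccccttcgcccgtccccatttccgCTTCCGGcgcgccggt
Cox7a1: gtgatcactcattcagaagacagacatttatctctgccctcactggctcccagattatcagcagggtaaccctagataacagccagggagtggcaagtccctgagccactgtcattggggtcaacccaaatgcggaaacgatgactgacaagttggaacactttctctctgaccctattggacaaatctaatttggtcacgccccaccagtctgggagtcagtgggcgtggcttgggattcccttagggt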

How the data were processed

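Per the file headers, Agilent Feature Extraction 10.1.1.1 gave the values of the 8 arrays that the authors deposited. The deposited intensity (processed signal) had spatial and multiplicative detrending and surrogate values at background switched on. The submitters' processing notes name that software and limma. A deposited log2 table of the authors served only as an alternative; the sources used here do not give its steps.

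Control spots (1377 of 44397) and spots with an outlier mark were left out, and 441 of 39429 probes had no usable spot on some array. Each signal was put on the log2 scale and the array's own 75th percentile subtracted. A gene was represented by its brightest probe and tested if 1 group or more had it well above background on each of its arrays. The 4 comparisons came from lmFit and eBayes of limma 3.58.1 (R 4.3.3) over all 8 arrays, with a Benjamini-Hochberg adjusted p below 0.05 over 19085 genes; an exact permutation test of 2 arrays against 2 cannot go below 0.333. The number of arrays limits the precision. The replicate number is also the slide, and the deviations of replicate 1 minus 2 correlated between groups at 0.43 to 0.86, so the fit with the slide as a block is given beside each call. On simulated data for shRNA1 (19085 genes) the fit without a block called 0% of genes changed by 1, 2 or 3 (log2). The blocked fit called 0%, 40% and 60%, with 3 false calls. The simulation gave all groups the same slide difference and each gene independent noise. In these data the slide difference varied between groups for many genes together, so the simulated rates may not carry over. Genes, lists and comparisons were chosen with earlier results of these data known. Named are, per comparison, up to 6 of the largest rises and falls among genes whose groups do not overlap, genes called by limma in either fit, forms of a subunit with their partners, and the extreme genes of the fixed lists. Ndufaf3, Ndufaf4, Uqcrc2 and the assembly or list genes beyond that rule were chosen after their values were seen. A gene that the rule names is not reported here. Alternatives covered scaling, background, filter, probe choice, the block, each array left out and the authors' values. Of the 26 genes with several probes, 25 had several usable ones. Among probes above background on all arrays, 0 of these genes had one over 0.5 from the chosen probe in any comparison. Among all usable probes 1 did, Cox7c, at 0.56 against -0.24 on the chosen probe with shRNA1 and 0.67 against -0.17 between the shRNAs. Promoter sequences are from RefSeq. Figures were drawn with matplotlib 3.10.9.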

Additional observations from a re-analysis of the deposited data

How the results depend on the processing

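Without a block the count of genes called was 0 of 86 in all 4 comparisons under every alternative. In the paired analysis with the replicate block the count was 1 for DEX, Cox6a2; it was also 1 with the block and median scaling, and 0 to 1 with the block and each array left out, and it stayed 0 in the other 3 comparisons. Cox6a2 kept its direction in all settings run, between -3.12 and -1.59 with DEX, 1.33 and 2.95 with shRNA1, and 2.15 and 3.73 with shRNA2 without the block. Alternatives that pair the block with another choice, the repaired normexp (83 local background values replaced) and the set without the 4 genes that are no subunits were chosen after seeing the data.

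The median of the 86 genes minus that of all genes did depend on the setting. With each array left out it ran from -0.23 to 0.16 for DEX (block -0.29 to 0.17), -0.66 to 0.16 for shRNA1 (block -0.36 to -0.07), -0.58 to 0.26 for shRNA2 (block -0.30 to 0.0034) and -0.45 to 0.34 between the shRNAs (block -0.22 to 0.09; 0.0855 without shRNA1 replicate 1, -0.21 without shRNA2 replicate 1 and 0.0918 without shRNA2 replicate 2). Without the block its sign with shRNA1 turned without shRNA1 replicate 1 (0.16), and with shRNA2 without shRNA2 replicate 1 (0.26) or control with DEX replicate 2 (0.03). Between the shRNAs it turned without shRNA1 replicate 1 (0.34) and without shRNA2 replicate 2 (0.32). The planned normexp, distorted by spots whose local background was aberrant, gave 1.00, -0.49, -1.81 and 1.49. Between the shRNAs the value was 0.0125 with the repaired normexp, 0.0046 with no filter on dim probes and -0.0292 within slide 1.

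Among small differences the sign turned in a few settings, and the cause was not tested. With the planned normexp and DEX, Ndufa5 was at 0.31, Ndufb10 at 0.44, Ndufb7 at 0.54 and Atp5k at 0.50, and with shRNA2 Ndufb7 was at -0.97. Cox6c with DEX was at -0.0383 with the block and without control with no DEX replicate 2. With median scaling, block or not, Atp5e was at -0.11 and Atp5d at -0.14 with shRNA1, and between the shRNAs Uqcrq at -0.000301 and Ndufb11 at -0.0033. Uqcrq was also at -0.0127 with quantile normalization, block or not, -0.0556 in the authors' values and -0.0649 with the block and without shRNA2 replicate 1.

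With 2 arrays per group the precision is limited. The lower 75th percentile of the shRNA arrays on slide 1 moves with the lower levels of most of these genes there, and its part was not tested.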
